A study of Mus musculus with 2 samples.

Results

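Signalling by fibroblast growth factors (FGFs) in the alveolar niche was described by 10 genes of the 32285 in the count files, chosen by symbol: the ligands *Fgf1*, *Fgf7*, *Fgf10* and *Fgf18*, the receptors *Fgfr1*, *Fgfr2* and *Fgfr3*, and the target genes *Etv5*, *Spry1* and *Spry2*. All 10 genes were found in both files. The counts came from 10x 3′ scRNA-Seq of mouse lung, with 1 library of *Cebpa fl/fl* mice as controls and 1 library of *Cebpa*ΔSftpc mice, in which Sftpc-CreERT2 deletes *Cebpa*, a transcription factor gene of the C/EBP family, in surfactant-making alveolar type II (AT2) cells. Both genotypes carried the floxed allele on a mixed genetic background, were 3 months old at the start, and received 5 daily injections of 75 mg/kg tamoxifen. By the study's methods, mice studied beyond 3 months from that round had weekly injections in a further round, which would apply here. Lungs were taken 26 weeks after the first injection, so descendants of recombined AT2 cells carry the deletion too. Each library pooled 3 mice, whose cells cannot be told apart in the counts. There was therefore 1 sample per genotype and no test between genotypes. All intervals are 95% intervals that cover counting error only.

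In the lung, FGF7 and FGF10 are made by mesenchymal cells and signal to the epithelium through the IIIb splice form of FGFR2, a receptor tyrosine kinase. The signal runs through RAS and ERK to the ETS transcription factor ETV5, and it induces the Sprouty proteins SPRY1 and SPRY2, which restrain the same cascade. FGF10 and FGFR2 are known for lung branching and for upkeep of AT2 cells. The counts do not separate splice forms.

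Cells were assigned to types by gates on raw counts of marker genes, and a type name below stands for the cells of its gate. The *Cebpa fl/fl* library held 69200420 unique molecular identifiers (UMIs) in 11721 barcodes and the *Cebpa*ΔSftpc library 64697396 in 13373, with medians of 4835 and 2607 UMIs per cell kept, and 45 barcodes occurred in both. Of cells with at least 1000 UMIs, 65.4% and 44.4% entered a gate. The main gates held 447 AT2 cells of the control library and 164 of the *Cebpa*ΔSftpc library, 80 and 38 alveolar type I (AT1) cells, 581 and 190 alveolar fibroblasts, 480 and 277 adventitial fibroblasts, and 271 and 140 ductal myofibroblasts. Every marker of these 5 gates stood at least 2-fold above the average of all cells in both libraries. The gates chose cells by these same markers against that average, so this is no separate check of cell identity. *Egfem1* in the ductal gates rested on 16 and 2 UMIs. Cells that also carried epithelial, endothelial, mesenchymal or immune markers of another lineage were left out, more of them in *Cebpa*ΔSftpc. With them kept, the AT2 gates would hold 456 and 247 cells and the AT1 gates 95 and 96. Numbers of gated cells and the share of UMIs in a gate depend on that filter. A level is given as CPM, the UMIs of a gene per 1000000 UMIs summed over the cells of a gate.

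The targeted gene was read first. *Cebpa* stood at 154.7 CPM (146.8 to 163.0) in *Cebpa fl/fl* AT2 cells and at 125.7 CPM (107.6 to 146.0) in *Cebpa*ΔSftpc AT2 cells, a log2 ratio of −0.30 (−0.54 to −0.07). The *Cebpa*ΔSftpc AT2 gate thus still held *Cebpa* UMIs. Whether the 3′ end that is counted lies inside the floxed part was not given in the sources used here, and the counts do not mark which cells had recombined. The gate keeps only cells that still show AT2 markers, so cells that lost them are outside every AT2 value below.

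The sequence before the start site is shown for 5 members whose UMIs came mostly from 1 kind of cell in the *Cebpa fl/fl* library: the fibroblast ligands *Fgf7*, *Fgf10* and *Fgf18*, the receptor *Fgfr2* and the target gene *Etv5*. Each run is the 250 bases upstream of a RefSeq start site on GRCm38.p6, 5′ to 3′ on the strand of the gene. Of the 10 members, 8 had such an entry. Capitals mark the CCAAT box (CCAAT, or ATTGG when it lies on the other strand), which 33.8% of all 32851 windows of this length hold.
Fgf7 (chr2:126034408-126034657, plus strand): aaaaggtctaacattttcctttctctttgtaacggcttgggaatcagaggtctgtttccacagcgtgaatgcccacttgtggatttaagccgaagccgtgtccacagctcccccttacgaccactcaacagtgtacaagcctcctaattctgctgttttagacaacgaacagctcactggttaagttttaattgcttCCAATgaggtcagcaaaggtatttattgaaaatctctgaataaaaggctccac
Fgf10 (chr13:118714449-118714698, plus strand): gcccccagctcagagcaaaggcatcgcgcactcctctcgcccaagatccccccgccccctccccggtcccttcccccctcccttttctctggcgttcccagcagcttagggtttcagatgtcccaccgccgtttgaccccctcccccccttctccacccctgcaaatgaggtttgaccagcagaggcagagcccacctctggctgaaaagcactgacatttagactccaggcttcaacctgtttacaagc
Fgf18 (chr11:33147401-33147650, minus strand): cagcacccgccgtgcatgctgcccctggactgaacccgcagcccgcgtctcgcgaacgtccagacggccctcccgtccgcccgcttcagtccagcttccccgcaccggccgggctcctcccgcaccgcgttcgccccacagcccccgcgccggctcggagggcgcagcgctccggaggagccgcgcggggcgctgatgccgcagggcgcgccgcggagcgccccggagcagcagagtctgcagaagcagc
Fgfr2 (chr7:130266809-130267058, minus strand): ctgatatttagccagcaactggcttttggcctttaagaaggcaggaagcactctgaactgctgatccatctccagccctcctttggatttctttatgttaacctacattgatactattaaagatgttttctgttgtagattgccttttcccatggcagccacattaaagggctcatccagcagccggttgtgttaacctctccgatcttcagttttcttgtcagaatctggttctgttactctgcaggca
Etv5 (chr16:22438369-22438618, minus strand): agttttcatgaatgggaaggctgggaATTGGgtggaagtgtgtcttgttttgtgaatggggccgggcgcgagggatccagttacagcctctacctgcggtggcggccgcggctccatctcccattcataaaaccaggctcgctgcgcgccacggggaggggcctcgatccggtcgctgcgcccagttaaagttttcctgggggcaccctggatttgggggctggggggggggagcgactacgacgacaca

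The *Fgf7* window holds 1 CCAAT box, 53 bases before the start site, and the printed *Etv5* window 1 on the other strand, 224 bases before it. *Etv5* has a second start site whose window overlaps annotated exons and is not printed, with 3 CCAAT boxes at 237, 142 and 110 bases before it, a number that 2.79% of all windows reach. The other 3 windows printed hold none. The windows differed more in base composition: the *Fgf18* window is 77.2% G or C with 37 CpG pairs, those printed for *Etv5* and *Fgf10* are 62.0% and 61.2%, and those of *Fgfr2* and *Fgf7* are 44.0% and 43.6% with 2 and 6 CpG pairs. The ETS motif CCGGAA (either strand) is in 12% of all windows and the C/EBP motif TTGCNNAA (either strand) in 9.56%, and neither is in a window of any of the 8 members. These matches describe letters only.

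*Fgf7* was a ligand of 3 fibroblast types. In the *Cebpa fl/fl* library it stood at 188 CPM (168 to 210) in ductal myofibroblasts, 152 CPM (140 to 165) in alveolar fibroblasts, 77.0 CPM (69.1 to 85.6) in adventitial fibroblasts and 46.5 CPM (31.6 to 65.9) in smooth muscle cells. In the *Cebpa*ΔSftpc library it stood at 112 CPM in both ductal myofibroblasts (90.9 to 137) and alveolar fibroblasts (94.1 to 133), at 75.1 CPM (63.4 to 88.4) in adventitial fibroblasts and at 10.8 CPM (4.32 to 22.2) in smooth muscle cells. The top of the order was thus ductal over alveolar in the control library, by intervals that did not overlap, and could not be ranked in the other.

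Between the libraries, *Fgf7* was lower in *Cebpa*ΔSftpc in alveolar fibroblasts (log2 ratio −0.44, −0.72 to −0.16) and in ductal myofibroblasts (−0.75, −1.09 to −0.41). Both differences were larger than the counting error. In the alveolar fibroblast gate 6 of 7 markers were lower too, with a median log2 ratio of −0.16 (range −0.37 to 0.15). General endothelial genes were at 544 and 1110 CPM in that gate, and immune ones at 8.35 and 111 CPM. The part of these in the *Fgf7* difference was not tested. In adventitial fibroblasts the *Fgf7* ratio was −0.04 and the intervals of the levels overlapped. In smooth muscle cells the ratio rested on 31 and 7 UMIs. Outside the mesenchyme *Fgf7* was near the detection limit, with 7 UMIs over 447 control AT2 cells and 2 over the 164 of the *Cebpa*ΔSftpc library.

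*Fgf10* was highest in alveolar fibroblasts in both libraries, at 87.0 CPM (77.8 to 97.1) in *Cebpa fl/fl* and 75.4 CPM (60.6 to 92.7) in *Cebpa*ΔSftpc. Adventitial fibroblasts held 31.7 CPM (26.7 to 37.4) and 31.6 CPM (24.2 to 40.6). The alveolar level was 2.75-fold (2.25 to 3.37) the adventitial one in the control library and 2.39-fold (1.71 to 3.36) in the other. Neither fibroblast type differed between the libraries beyond counting error, with a log2 ratio of −0.21 (−0.56 to 0.13) in alveolar fibroblasts. After thinning to 1000 UMIs it was −1.0 (−2.2 to 0.03), from 55 and 9 UMIs. In adventitial fibroblasts the interval of the ratio also spanned 0.

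Ductal myofibroblasts went the other way for *Fgf10*, with 17.7 CPM (11.9 to 25.4) in *Cebpa fl/fl* and 42.1 CPM (29.5 to 58.2) in *Cebpa*ΔSftpc. That is a log2 ratio of 1.25 (0.50 to 2.01), from 29 and 36 UMIs. As a result the alveolar level was 4.92-fold (3.36 to 7.46) the ductal one in the control library and 1.79-fold (1.21 to 2.72) in the *Cebpa*ΔSftpc library. The 5 general mesenchymal genes *Col1a1*, *Col1a2*, *Col3a1*, *Pdgfra* and *Pdgfrb* also moved in this gate, from 1810 to 7050 CPM in sum, while the summed alveolar fibroblast markers stood at 275 and 162 CPM and the adventitial ones at 1390 and 1600 CPM. Hemoglobins were at 394 CPM in the control gate and 122 CPM in the other, and by them 16.1% and 2.5% of the profile would be free RNA. With that share subtracted the ratios were 1.14 for *Fgf10* and −0.94 for *Fgf7*. The part of the mesenchymal genes in the *Fgf7* and *Fgf10* differences was not tested. Among ductal cells with 3000 to under 10000 UMIs, *Fgf10* was at 16.6 and 45.6 CPM and *Fgf7* at 198 and 129 CPM, in the same directions.

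*Fgf18* marked a different source. Ductal myofibroblasts held 250 CPM (227 to 276) in *Cebpa fl/fl* and 278 CPM (244 to 316) in *Cebpa*ΔSftpc, a log2 ratio of 0.15 (−0.08 to 0.39). Alveolar fibroblasts held 3 and 1 UMIs of *Fgf18* in all, so the ductal level was 310-fold (105 to 1510) and 332-fold (59.0 to 13200) higher, with wide intervals from these few UMIs. Among the epithelial gates compared (AT2, AT1 and ciliated cells) the only source was AT1 cells. They held 82.2 CPM (58.7 to 112) and 66.3 CPM (35.3 to 113), from 40 and 13 UMIs.

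*Fgf18* in AT1 cells did not differ beyond counting error, and the ductal level exceeded it 3.05-fold (2.20 to 4.33) and 4.19-fold (2.41 to 7.99). Of the 13 *Fgf18* UMIs in *Cebpa*ΔSftpc AT1 cells, 10 lay in 3 cells and 6 in 1 cell, so that level describes few cells. By hemoglobins, 2.59% and 29.6% of the AT1 profiles would be free RNA. In adventitial fibroblasts *Fgf18* was low and higher in *Cebpa*ΔSftpc, at 10.0 CPM (7.33 to 13.4) and 17.1 CPM (11.8 to 24.0), a log2 ratio of 0.77 (0.07 to 1.45). The levels' own intervals overlapped there.

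*Fgf1*, a ligand that can bind all FGF receptors, was not a fibroblast gene in these cells. It was highest in *Cebpa fl/fl* AT1 cells at 409 CPM (354 to 470), followed by aerocytes, the large capillary cells of the gas exchange surface, at 156 CPM (148 to 164), and by AT2 cells at 92.3 CPM (86.2 to 98.8). In the *Cebpa*ΔSftpc library aerocytes led at 208 CPM (198 to 219), before AT1 cells at 133 CPM (86.6 to 194) and AT2 cells at 93.4 CPM (77.8 to 111). The order of AT1 cells and aerocytes was reversed between the libraries, while AT2 cells were level (log2 ratio 0.02, −0.27 to 0.29).

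*Fgf1* in AT1 cells had a log2 ratio of −1.62 (−2.27 to −1.03), from 199 and 26 UMIs. All 7 AT1 markers were lower in the same cells, with a median log2 ratio of −1.61 (range −2.34 to −0.82). Per 1000 UMIs of the AT1 markers there were 12.1 *Fgf1* UMIs (10.5 to 13.9) in *Cebpa fl/fl* and 11.2 (7.34 to 16.5) in *Cebpa*ΔSftpc, which is level within counting error. These markers also chose the cells of the gate, and only *Fgf1* was set against them. In the same gate the log2 ratio per total UMIs was −0.31 (−1.34 to 0.62) for *Fgf18* and 0.34 (−0.40 to 1.05) for *Spry1*.

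The *Cebpa*ΔSftpc AT1 gate also differed in other markers. Summed airway secretory markers were at 345 CPM in *Cebpa fl/fl* and 19200 CPM in *Cebpa*ΔSftpc, the 6 general endothelial genes at 388 and 1840 CPM, and hemoglobins at 63.7 and 1440 CPM, and its 5 deepest cells held 50.2% of its UMIs against 19.8%. Without alveolar cells carrying airway secretory markers, a setting added once the data had been seen, the *Fgf1* ratio was −1.39 in 78 and 36 AT1 cells. The part of the other markers in the result was not tested.

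In aerocytes *Fgf1* had a log2 ratio of 0.42 (0.31 to 0.52), which is within 1.5-fold. In both libraries *Fgf1* in aerocytes stood 5.25-fold (4.61 to 6.0) and 5.82-fold (4.73 to 7.24) above general capillary cells.

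**Figure D1:**
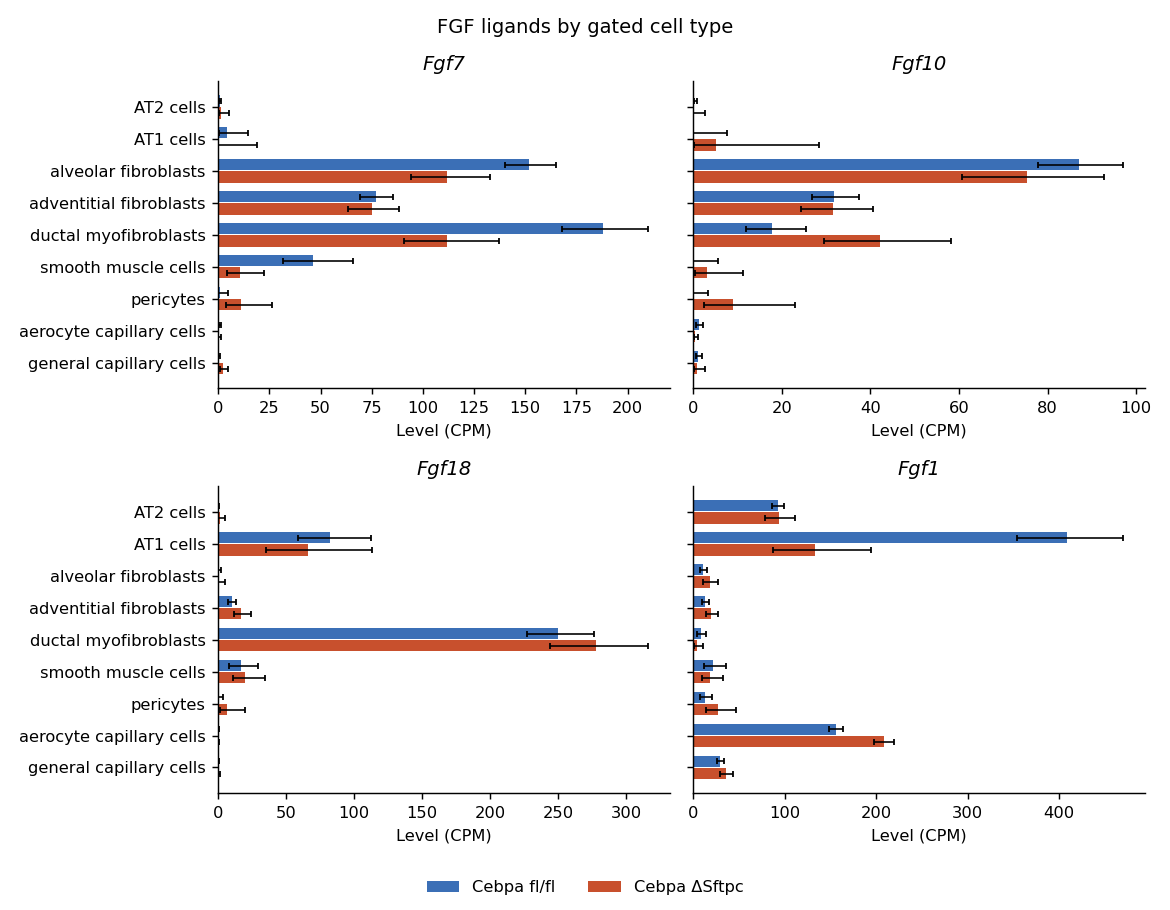
Level of each FGF ligand in CPM (horizontal axis, linear from 0) in 9 gated cell types, with 1 bar per library (blue, *Cebpa fl/fl*; red, *Cebpa*ΔSftpc) and exact 95% Poisson intervals that cover counting error only. *Fgf10* is highest in alveolar fibroblasts (87.0 and 75.4 CPM), *Fgf18* in ductal myofibroblasts (250 and 278 CPM), and *Fgf1* in AT1 cells of the control library (409 CPM) but in aerocytes of the other (208 CPM).

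Among the gates compared, the receptor *Fgfr2* was highest in AT2 cells. It stood at 269 CPM (258 to 280) in *Cebpa fl/fl* AT2 cells and at 291 CPM (263 to 321) in *Cebpa*ΔSftpc AT2 cells, a log2 ratio of 0.12 (−0.04 to 0.27) from summed counts and of −0.12 (−0.29 to 0.05) as a mean over cells. AT1 cells held 57.5 CPM (38.2 to 83.1) and 56.1 CPM (28.0 to 100), so the AT2 level was 4.67-fold (3.23 to 7.05) and 5.19-fold (2.87 to 10.5) higher. Next came ductal myofibroblasts at 54.3 CPM (43.6 to 66.9) and 77.1 CPM (59.6 to 98.1), which could not be ranked against AT1 cells in either library.

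At the unequal depth of the AT2 gates, with medians of 21100 and 2277 UMIs per cell, the share of AT2 cells with a *Fgfr2* UMI was 93.3% in the control library and 52.4% in the *Cebpa*ΔSftpc library. After thinning every cell to 1000 UMIs these shares were 19.2% (15.7 to 23.2) and 20.7% (14.8 to 27.7). General capillary cells, with medians of 4325 and 4986 UMIs, served as a type that should hold little *Fgfr2*, and 1.38% and 1.23% of them had a UMI after thinning. The AT2 shares were far above that background and close to each other.

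*Fgfr1* was the receptor of adventitial fibroblasts, at 301 CPM (285 to 317) and 275 CPM (252 to 299), against 146 CPM (134 to 159) and 116 CPM (97.2 to 137) in alveolar fibroblasts. The adventitial level was 2.06-fold (1.86 to 2.27) and 2.37-fold (1.96 to 2.88) the alveolar one. In AT2 cells *Fgfr1* was at 6.05 and 8.82 CPM. Lymphatic endothelial cells (104 and 119 CPM), ductal myofibroblasts (83.6 and 100 CPM) and smooth muscle cells (92.9 and 76.8 CPM) had intervals that overlapped among these 3 types, all below the alveolar fibroblast interval in the control library only.

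*Fgfr3* was highest in aerocytes at 227 CPM (218 to 237) in *Cebpa fl/fl* and 268 CPM (256 to 280) in *Cebpa*ΔSftpc, a log2 ratio of 0.24. Alveolar fibroblasts followed at 176 CPM (163 to 190) and 168 CPM (146 to 193). The aerocyte level was 6.33-fold (5.63 to 7.13) and 5.99-fold (4.98 to 7.27) that of general capillary cells, and the alveolar fibroblast level 2.91-fold (2.52 to 3.36) and 3.87-fold (2.99 to 5.06) the adventitial one. *Fgfr1* and *Fgfr3* thus ranked the same 2 fibroblast types in opposite orders in each library.

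The target gene *Etv5* was far higher in AT2 cells than in any other of the 17 gates compared. It stood at 434 CPM (421 to 448) in *Cebpa fl/fl* and 477 CPM (441 to 515) in *Cebpa*ΔSftpc AT2 cells, against 32.9 CPM (18.8 to 53.4) and 25.5 CPM (8.28 to 59.5) in AT1 cells. The AT2 level was 13.2-fold (8.13 to 23.1) and 18.7-fold (7.97 to 57.8) the AT1 level. The next highest gates were pericytes in the control library, at 42.2 CPM, and AT1 cells in the other.

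Between the libraries, *Etv5* in AT2 cells had a log2 ratio of 0.14 (0.01 to 0.26), close to the median of 0.12 over all genes tested in this gate. The sign rested on how cells were weighted: summed counts weigh deep cells most, and the ratio was −0.17 when each cell's CPM was averaged and −0.11 (−0.52 to 0.28) when each cell was thinned to 1000 UMIs. In cells with at least 10000 UMIs (398 and 47 cells) *Etv5* was at 432 CPM (418 to 446) and 506 CPM (465 to 550). In cells with 1000 to under 3000 UMIs (17 and 93 cells) it was at 463 CPM (264 to 751) and 287 CPM (208 to 387), and with 3000 to under 10000 UMIs (32 and 24 cells) at 537 CPM (444 to 643) and 451 CPM (338 to 589). Hemoglobins in the *Cebpa*ΔSftpc AT2 cells were at 654, 1390 and 86.0 CPM from the shallowest to the deepest range.

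A UMI of *Etv5* was seen in 97.3% and 59.8% of AT2 cells at full depth, and in 34.5% (30.1 to 39.1) and 37.8% (30.4 to 45.7) after thinning. In thinned general capillary cells the shares were 0.917% and 0.818%. At full depth 7.5% and 10.5% of AT1 cells had one, from 16 and 5 UMIs in all.

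**Figure D2:**
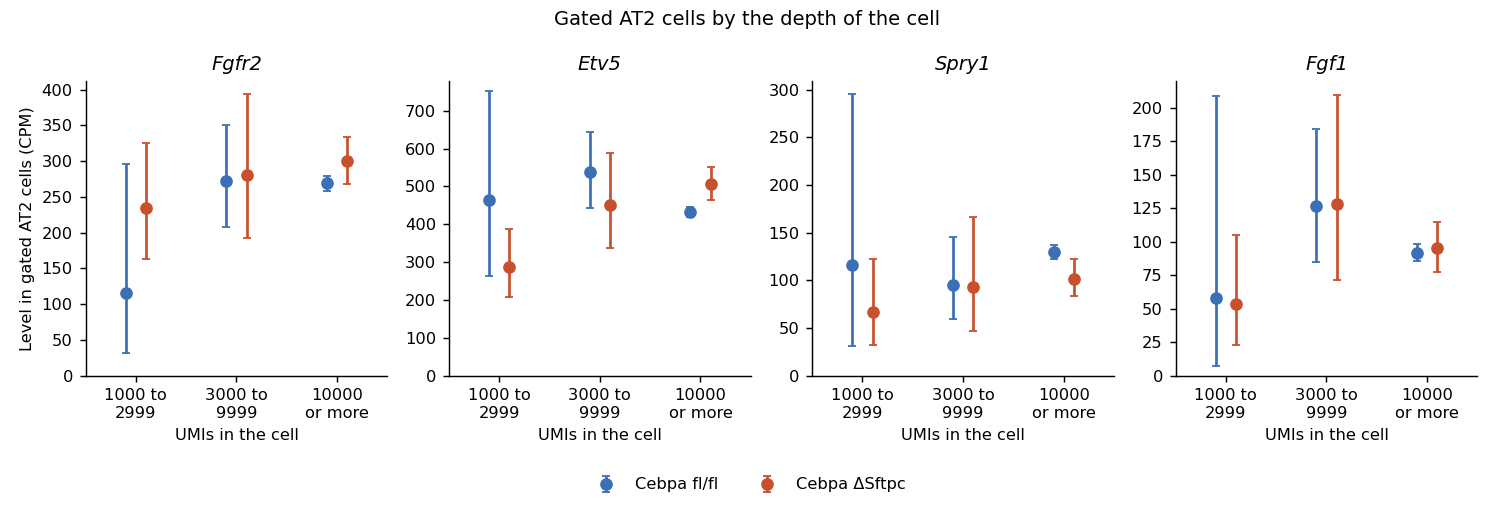
Level in gated AT2 cells in CPM (vertical axis, linear from 0) against the UMIs of the cell in 3 ranges, for *Fgfr2*, *Etv5*, *Spry1* and *Fgf1*, with 1 point per library (blue, *Cebpa fl/fl*; red, *Cebpa*ΔSftpc) and exact 95% Poisson intervals that cover counting error only. *Etv5* is higher in *Cebpa*ΔSftpc cells with at least 10000 UMIs (506 against 432 CPM) and lower in those with 1000 to under 3000 UMIs (287 against 463 CPM, intervals overlapping).

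*Spry1* was the only member measured in AT2 cells whose ratio had an interval below 0, at 129 CPM (121 to 136) in *Cebpa fl/fl* and 97.0 CPM (81.2 to 115) in *Cebpa*ΔSftpc, a log2 ratio of −0.41 (−0.68 to −0.15). In AT2 cells with at least 10000 UMIs it was at 130 CPM (122 to 137) and 102 CPM (83.5 to 122), with intervals that met at 122. The ratio was further from 0 as a mean over cells (−0.77) and after thinning to 1000 UMIs (−0.85, −1.99 to 0.15). It was highest in ductal myofibroblasts, at 231 CPM (208 to 255) and 252 CPM (220 to 288), followed by alveolar fibroblasts at 173 and 161 CPM. *Spry1* was also lower in *Cebpa*ΔSftpc smooth muscle cells (108 and 50.7 CPM, log2 ratio −1.09) and pericytes (128 and 69.4 CPM, −0.89), and higher in aerocytes (0.78). In the pericyte gate all 8 pericyte markers were lower too, with a median log2 ratio of −0.64 (range −1.11 to −0.42), and the general endothelial genes were at 822 and 2548 CPM. In the smooth muscle gate 6 of 7 markers were above 0, with a median of 0.13. The part of these in the *Spry1* differences was not tested.

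*Spry2* led in AT2 cells, at 78.9 CPM (73.2 to 84.9) and 75.7 CPM (61.8 to 91.8), level within counting error (log2 ratio −0.06, −0.37 to 0.24). Pericytes, at 73.0 CPM (58.1 to 90.5) and 51.5 CPM (32.6 to 77.2), could not be ranked below them. Neither could T or NK cells, at 52.4 CPM (28.7 to 88.0) and 54.3 CPM (46.4 to 63.2). In *Cebpa*ΔSftpc the interval of lymphatic endothelial cells (40.6 CPM, 23.2 to 65.9) overlapped that of AT2 cells too. In *Cebpa*ΔSftpc *Spry2* was higher in adventitial fibroblasts, at 25.2 and 42.0 CPM with a log2 ratio of 0.73 (0.30 to 1.16), and in ductal myofibroblasts, at 25.6 and 44.4 CPM with a ratio of 0.79 (0.12 to 1.46). AT1 cells held less of *Spry2* than AT2 cells, by 2.40-fold (1.47 to 4.22) and 2.97-fold (1.23 to 9.34), but no less of *Spry1* beyond counting error.

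**Figure D3:**
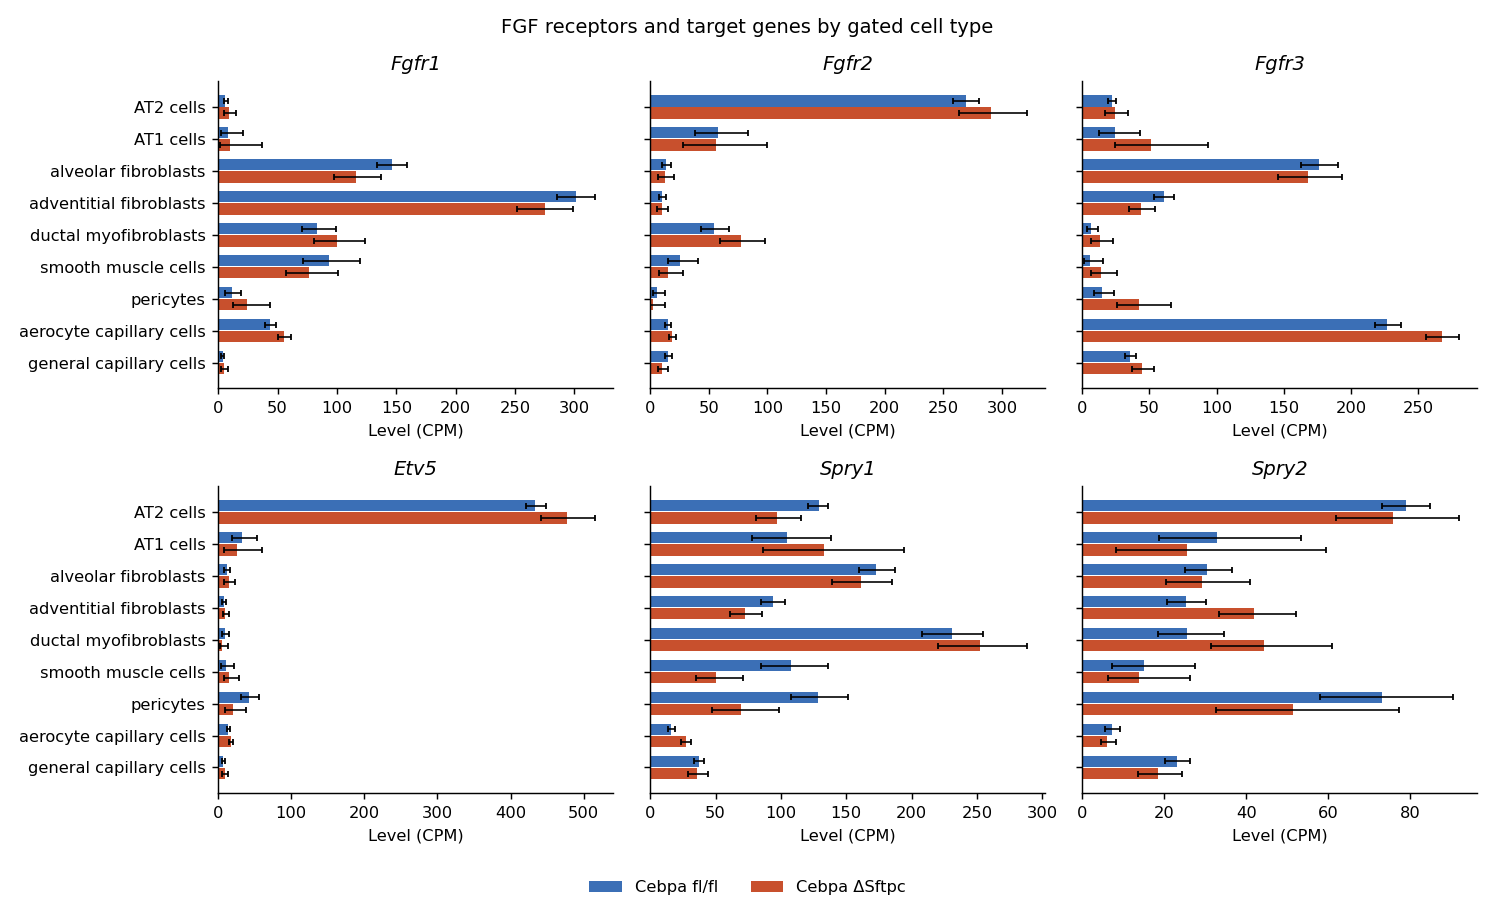
Level of the receptors and target genes in CPM (horizontal axes, linear from 0) in 9 gated cell types, with 1 bar per library (blue, *Cebpa fl/fl*; red, *Cebpa*ΔSftpc) and exact 95% Poisson intervals that cover counting error only. *Fgfr2* (269 and 291 CPM) and *Etv5* (434 and 477 CPM) are highest in AT2 cells, *Fgfr1* in adventitial fibroblasts, *Fgfr3* in aerocytes and *Spry1* in ductal myofibroblasts.

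The members were then read against all genes with at least 50 UMIs over both libraries, counting ratios past 1.5-fold with no test. In AT2 cells 7 members were measured this deeply and none passed 1.5-fold, where 10.9% of 9632 genes were past it as higher in *Cebpa*ΔSftpc and 3.65% as lower. That count depended on the weighting: as a mean over cells *Spry1* (−0.77), *Fgfr1* (1.36) and *Fgfr3* (0.83) were past 1.5-fold, and so were 27.4% of genes as higher and 11.0% as lower. In AT1 cells 3 were measured and *Fgf1* was past it as lower, as were 22.2% of 2407 genes, with 19.7% higher. In alveolar fibroblasts 1 of 9 was past it, *Fgf1* as higher, from low counts and with an interval that spans 0 (0.71, −0.13 to 1.5), where 5.95% of 9180 genes were higher and 7.3% lower. In adventitial fibroblasts 2 of 10, *Fgf18* and *Spry2*, were past it as higher, where 4.8% of 9825 genes were higher and 4.11% lower.

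In ductal myofibroblasts 2 of 7 members, *Fgf10* and *Spry2*, were past it as higher and 1, *Fgf7*, as lower, where 10.2% of 6832 genes were higher and 6.63% lower. With so few members, these counts lie near the background in AT2 and AT1 cells. In the fibroblast gates the counts of higher members exceed the shares of all genes but rest on 1 or 2 members each. The lower count in ductal myofibroblasts rests on *Fgf7* alone.

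**Figure D4:**
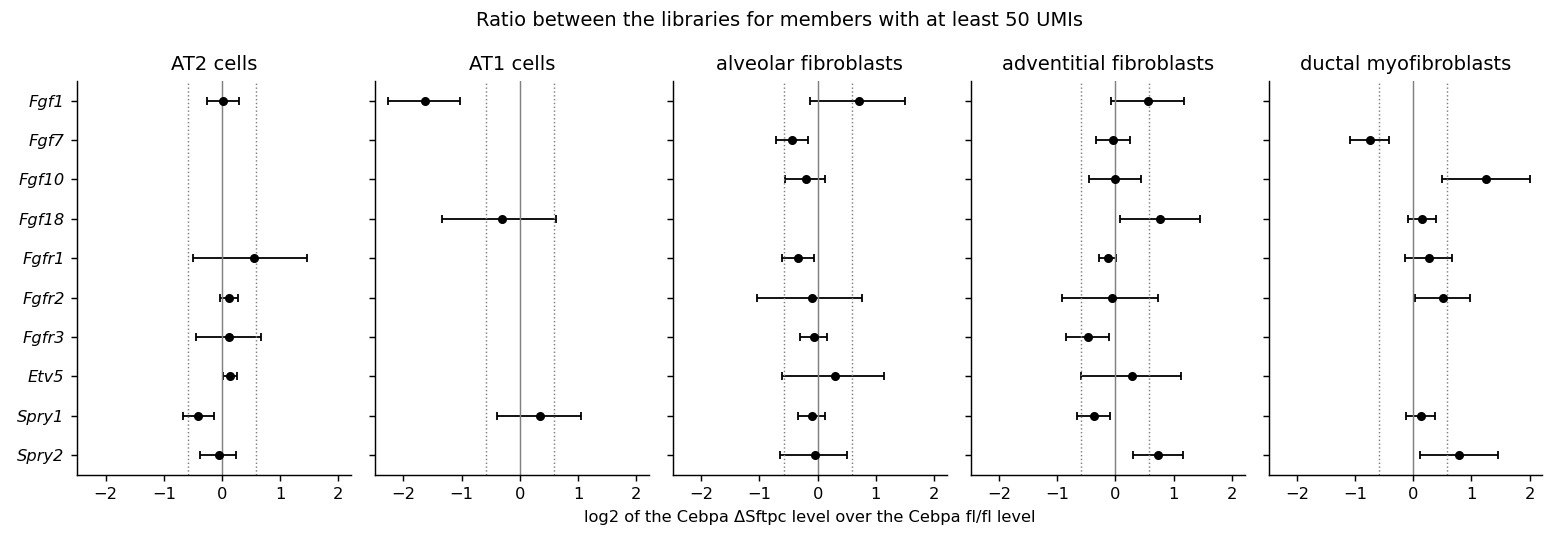
Log2 ratio of the *Cebpa*ΔSftpc level over the *Cebpa fl/fl* level (horizontal axis) for each member with at least 50 UMIs over both libraries in 5 gated cell types; points are ratios, bars are exact 95% intervals that cover counting error only, and dotted lines mark 1.5-fold. From summed counts no member passes 1.5-fold in AT2 cells, while *Fgf1* in AT1 cells (−1.62), *Fgf7* (−0.75) and *Fgf10* (1.25) in ductal myofibroblasts do.

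The whole libraries gave another picture than the gates. Over all cells kept, *Etv5* stood at 67.8 CPM in *Cebpa fl/fl* and 22.5 CPM in *Cebpa*ΔSftpc, 3.01-fold (2.83 to 3.19) lower, and *Fgfr2* at 49.6 and 17.7 CPM, 2.80-fold (2.62 to 3.0) lower. The AT2 gate supplied 13.2% and 2.11% of all UMIs, but 84.6% and 44.7% of the *Etv5* UMIs and 71.5% and 34.7% of the *Fgfr2* UMIs. Outside the AT2 gate *Etv5* was at 12 CPM (11.1 to 12.9) and 12.7 CPM (11.9 to 13.7), level within counting error, and *Fgfr2* at 16.3 CPM (15.3 to 17.4) and 11.8 CPM (11.0 to 12.7). From summed counts, which weigh deep cells most, the level of *Etv5* thus differed little inside and outside the gate. The share of UMIs from gated AT2 cells differed. *Fgfr2* was 1.38-fold (1.25 to 1.52) lower outside the gate too. Cells outside the gate include those with AT2 markers that were left out for markers of another lineage. These were more numerous in *Cebpa*ΔSftpc, as the AT2 gates would hold 456 and 247 cells with them kept. Cells in no gate supplied 5.7% and 29.7% of the *Etv5* UMIs, at 14.6 and 15.0 CPM. In a sum over all cells, fewer cells of a type and less RNA per cell cannot be told apart. In the AT2 gate both the cells (447 and 164) and their median UMIs (21100 and 2277) were lower in *Cebpa*ΔSftpc. How many cells of each type were loaded from the tissue is not known.

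*Fgf7* and *Fgf10* also differed more over the whole libraries than within the mesenchymal gates. Those gates held 16.9% of the control UMIs and 7.88% of those of the *Cebpa*ΔSftpc library. Over all cells *Fgf7* was 2.19-fold (1.99 to 2.42) lower in *Cebpa*ΔSftpc, at 20.3 and 9.25 CPM. Within the mesenchymal gates it was 1.41-fold (1.26 to 1.58) lower, at 107 CPM (102 to 114) and 76.2 CPM (68.8 to 84.2). Outside them *Fgf7* was low and higher in *Cebpa*ΔSftpc, at 2.55 CPM (2.16 to 3.0) and 3.52 CPM (3.06 to 4.03). The gates held 89.5% and 64.9% of its UMIs, and cells in no gate 8.02% and 30.7%. For *Fgf10* the library levels were 8.47 and 4.67 CPM, 1.81-fold (1.58 to 2.09) lower, and the mesenchymal levels were 42.5 CPM (38.8 to 46.4) and 38.0 CPM (32.8 to 43.8).

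The *Fgf10* difference within the mesenchyme did not exceed counting error (1.12-fold, 0.944 to 1.33), and that of *Fgf7* did. The mesenchymal gates pool 5 types whose proportions differed, with 581 and 190 alveolar beside 480 and 277 adventitial fibroblasts. The part of that mix in the pooled differences was not tested. *Fgf1* (57.6 CPM in both) and *Fgfr3* (75 and 75.4 CPM), whose UMIs came to 45.9% and 46.3%, and to 53.1% and 48.1%, from endothelial gates, were level over the whole libraries. Within those gates both were higher in *Cebpa*ΔSftpc, *Fgf1* at 75.3 CPM (71.9 to 78.9) and 128 CPM (122 to 135) and *Fgfr3* at 113 CPM (109 to 118) and 174 CPM (167 to 182), while the gates held 35.1% and 20.8% of all UMIs. The gates pool 5 endothelial types whose proportions differed, with 1324 and 1052 aerocytes beside 1962 and 489 general capillary cells.

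**Figure D5:**
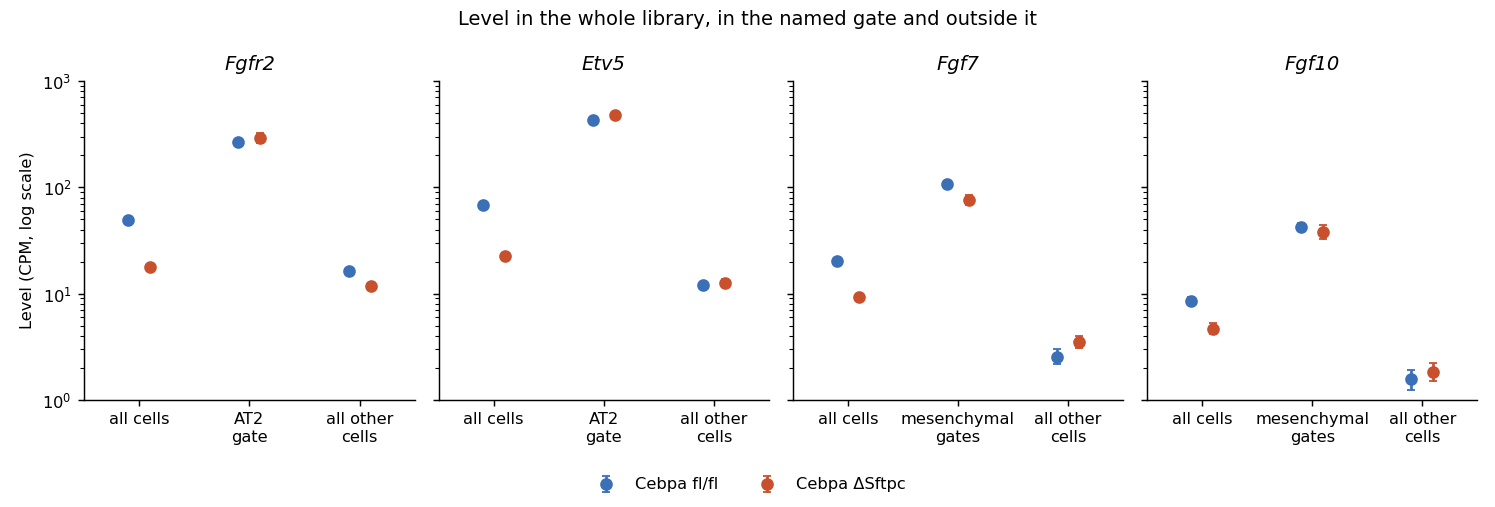
Level in CPM (vertical axis, log scale from 1 to 1000) over all cells kept, inside the AT2 gate (*Fgfr2*, *Etv5*) or the mesenchymal gates (*Fgf7*, *Fgf10*), and in all other cells, with 1 point per library (blue, *Cebpa fl/fl*; red, *Cebpa*ΔSftpc) and exact 95% Poisson intervals that cover counting error only. Over all cells *Etv5* is 3.01-fold lower in *Cebpa*ΔSftpc, although inside the AT2 gate it is at 434 and 477 CPM and outside it at 12 and 12.7 CPM.

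A list of 81 other genes of the pathway (further ligands, co-receptors, heparan sulphate enzymes and ligand carriers, adaptors and the ERK cascade, feedback and target genes) put these values in context. In AT2 cells 44 of them were measured deeply enough, of which 6 were past 1.5-fold as higher and 3 as lower, with a median log2 ratio of 0.19 beside 0.12 for all genes tested. All 17 adaptor and cascade genes measured stayed within 1.5-fold in AT2 cells, alveolar fibroblasts and adventitial fibroblasts. In alveolar fibroblasts 3 of 49 were higher and 4 lower, in adventitial fibroblasts 4 of 53 and 4, in ductal myofibroblasts 6 of 39 and 1, and in AT1 cells 5 of 17 and 4. The shares over all genes in these gates, given above for the members, were 5.95% and 7.3%, 4.8% and 4.11%, 10.2% and 6.63%, and 19.7% and 22.2%, and with such small lists nothing particular to the pathway can be read from the counts.

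The 5 largest ratios of the list in AT2 cells began with *Sox9*, a transcription factor gene of the embryonic distal epithelium, at 3 UMIs in *Cebpa fl/fl* and 49 in *Cebpa*ΔSftpc, 109-fold higher (35.2 to 547). Those 49 UMIs lay in 5 of 164 cells, 33 of them in 1 cell, so the ratio describes few cells. The hedgehog ligand *Shh* followed, at 12.5 and 24.3 CPM (log2 ratio 0.95, 0.35 to 1.52). The heparan sulphate proteoglycan *Sdc2* was at 11.6 and 19.1 CPM (0.73, 0.05 to 1.36). The FGF-binding protein *Fgfbp3* (7.48 and 4.41 CPM) and the glypican *Gpc4* (9.79 and 5.88 CPM) were lower, from 6 and 8 *Cebpa*ΔSftpc UMIs and with intervals that span 0.

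In alveolar fibroblasts the 5 largest ratios were those of the cyclin gene *Ccnd1*, at 35.8 and 80.4 CPM (1.17, 0.77 to 1.56), the glypican *Gpc6* (15.6 and 7.54 CPM), *Sox9* (18.3 and 9.22 CPM), the heparan sulphate sulphotransferase *Hs3st1* (14 and 27.7 CPM) and *Fgfbp3* (19.9 and 11.7 CPM). The intervals of *Ccnd1*, *Gpc6*, *Sox9* and *Hs3st1* did not span 0. *Sox9* thus stood on opposite sides in the AT2 and alveolar fibroblast gates.

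For each member the genes with the most similar levels across cell types were listed by Pearson's r of log2(CPM + 10) over 34 points, the 17 gated types of both libraries, among 14112 genes. The points share 2 libraries and their depths, so r is a description. *Etv5* was most like *Lrp2* (r = 0.94), *Lgi3* (0.93) and *Trpv6* (0.93), and *Fgfr2* most like *Ppp1r9a* (0.91), *Met* (0.88) and *Gdnf* (0.88). *Fgf10* was closest to *Ccbe1* (0.97), *Robo2* (0.96) and *Faim2* (0.96), *Fgf7* to *Pnmal2* (0.97), *Pamr1* (0.96) and *Tmem132c* (0.96), and *Fgf18* to *Scx* (0.89), *Rab38* (0.85) and *P4ha3* (0.83).

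*Fgf1* was closest to *Lmo7* (0.88), *Prep* (0.86) and *Gprc5a* (0.83), *Fgfr1* to *Rhobtb3* (0.93) and *Tnxb* (0.92), and *Fgfr3* to *Plxna2* (0.78), *Phlda3* (0.78) and *Lgals3bp* (0.75). The Sprouty genes were close to *Rbms3* (0.85), *Ltbp3* (0.84) and *Ptms* (0.84) for *Spry1*, and to *Bex3* (0.76), *Itm2c* (0.73) and *Srebf1* (0.73) for *Spry2*. Among the members *Fgf7* and *Fgf10* had the closest matches and *Fgfr3* and *Spry2* the weakest. The best match of *Fgf18* (0.89) was about as close as that of *Fgf1* (0.88).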

How the data were processed

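The labels speak of sorted cells and the study's methods of whole-lung suspensions, and the loaded population is therefore uncertain. The authors deposited raw UMI counts, whole numbers without normalization, from Cell Ranger and the mm10 genome. The submitters' processing notes name Cell Ranger 6.1.1, and the file headers name 5.0.0. Gene spans of GENCODE M21 for GRCm38 give *Fgfr2* a model that covers other genes of the same strand, and *Fgf1*, *Fgf7*, *Fgf10*, *Fgfr1*, *Fgfr3* and *Spry1* overlap a gene of the other strand. How such reads were counted was not given in the sources used here, so these counts are uncertain to that extent.

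Kept cells had 200 or more genes and a mitochondrial share up to 20%, and gated cells had at least 1000 UMIs. A cell entered the gate of the most enriched type if it had at least 3 distinct markers, 5 marker UMIs and a 3-fold enrichment over the average of both libraries. It was left out if the epithelial, endothelial, mesenchymal or immune markers of another lineage reached that average, which stood in for a doublet caller. Hemoglobins played no part in this step. The free RNA shares given by hemoglobins could thus include erythroid cells joined to a gated cell. The step removed more *Cebpa*ΔSftpc cells than control cells. Without it the pericyte gates, for one, would hold 265 and 150 cells in place of 232 and 71. The markers were *Lamp3*, *Abca3*, *Slc34a2*, *Napsa*, *S100g*, *Hc*, *Sftpb* and *Sftpa1* for AT2 cells, *Ager*, *Rtkn2*, *Akap5*, *Hopx*, *Clic5*, *Aqp5* and *Pdpn* for AT1 cells, *Npnt*, *Ces1d*, *Inmt*, *Tcf21*, *Col13a1*, *Itga8* and *Wnt2* for alveolar fibroblasts, *Pi16*, *Dpt*, *Col14a1*, *Ccl11*, *Mfap5*, *Serpinf1* and *Entpd2* for adventitial fibroblasts, and *Hhip*, *Aspn*, *Mustn1*, *Lgr6*, *Egfem1* and *P2ry14* for ductal myofibroblasts. Of 23 types sought, 17 had at least 20 cells in both libraries, and only these were given levels and ranked. Airway secretory cells (16 and 10), mesothelial cells (12 and 11), alveolar and C1q macrophages, monocytes and neutrophils were not. The form of the gate was settled after seeing the data, and the members and lists were chosen with earlier results of these data known.

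UMIs were summed over the cells of a gate. Levels carry exact Poisson intervals, shares of cells Clopper-Pearson intervals, and ratios intervals from the exact conditional binomial, all at 95% and for counting error only. A side with fewer than 3 UMIs was set to 3, except in the 332-fold ratio of *Fgf18*, which used the 1 UMI counted. With that floor it would be 111-fold (37.4 to 540). The text names all members, the 5 pathway genes with the largest ratio in AT2 cells and in alveolar fibroblasts, and the 3 genes most like each member, of which 1 is not reported here. Further alternatives changed filters, gates, scaling, weighting and subtraction of free RNA. Scripts used Python 3.11.15, numpy 2.4.6, pandas 2.3.3 and scipy 1.17.1, and the intervals were tested on simulated counts.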

Additional observations from a re-analysis of the deposited data

Results flagged for a closer look

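*Fgf1* went in opposite directions between the libraries in the 2 cell types where it was highest. Its log2 ratio of *Cebpa*ΔSftpc over *Cebpa fl/fl* was −1.62 in AT1 cells and 0.42 in aerocyte capillary cells. The AT1 ratio was past 1.5-fold and the aerocyte ratio within it. Of the other members with at least 50 UMIs in aerocytes, *Fgfr1* (0.33), *Fgfr2* (0.31), *Fgfr3* (0.24), *Etv5* (0.33) and *Spry1* (0.78) were also above 0, and *Spry2* (−0.24) was below. No share over all genes was computed for the aerocyte gate. In the AT1 gate all 7 AT1 markers were lower as well (median −1.61), *Fgf1* stood at 12.1 and 11.2 UMIs per 1000 AT1 marker UMIs, and airway secretory markers were at 345 and 19200 CPM. The AT1 markers also chose the cells of that gate, and only *Fgf1* was set against them. With 1 library per genotype the difference between these ratios was not tested.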

How the results depend on the processing

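Of the results the comparisons turn on, 174 were classed as the same under the alternatives, 20 as moved and 2 as reversed. Of the values of other members, 411 were classed as the same, 19 as moved and 1 as reversed. A change of sign was not always classed as reversed. Small positive ratios of *Etv5* and *Fgfr2* in AT2 cells and of *Fgf18* in ductal myofibroblasts turned negative in some settings. *Etv5* in AT2 cells was −0.17 as a mean over cells of each cell's CPM and −0.11 in cells thinned to 1000 UMIs. *Fgfr2* in AT2 cells was −0.12 as a mean over cells. After thinning, *Fgf10* in alveolar fibroblasts was −1.0 (from 55 and 9 UMIs), *Fgf18* in ductal myofibroblasts −0.23, and *Fgfr2* in ductal myofibroblasts −0.76 (from 23 and 7 UMIs). The cause was not tested.

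The percentages of all genes past the fold depended more on the setting. As a mean over cells they were 27.4% higher and 11.0% lower in AT2 cells, 13.9% higher in alveolar fibroblasts and 10.3% lower in ductal myofibroblasts. After thinning they were 12.8% higher in AT1 cells, 7.23% lower in AT2 cells and 12% lower in ductal myofibroblasts. At a fold of 2 they were 8.85% higher and 11.6% lower in AT1 cells, 2.46% and 1.12% in AT2 cells, 1.96% and 1.5% in alveolar fibroblasts, and 2.12% and 1.42% in ductal myofibroblasts. With at least 20 UMIs, 10.0% were lower in ductal myofibroblasts, and with at least 10000 UMIs per cell 6.98% were lower in AT2 cells. That last minimum, leaving out barcodes found in both libraries, and leaving out alveolar cells with airway secretory markers were chosen after seeing the data. No paired analysis was possible because each genotype had 1 library. The *Cebpa*ΔSftpc AT1 values rest on 38 cells, and the AT2 gates differ in depth, with medians of 21100 and 2277 UMIs per cell.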
